A study of Mus musculus with 34 samples.

Results

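In mouse liver, 2707 of the 27423 binding sites of PROX1 were shared with HNF4α and carried no listed peak of HDAC3, which is 9.87% of the PROX1 cistrome. The members were chosen by the deposited peak positions: a PROX1 peak entered when under 50% of its 200 bp was covered by any HDAC3 peak and at least 50% was covered by a single HNF4α peak. The series mapped HDAC3, PROX1 and HNF4α by ChIP-seq, which sequences the DNA fragments that an antibody pulls down together with a cross-linked protein. Livers came from C57B/6 male mice at 10 weeks of age and were taken at zeitgeber time 10, that is, 10 h after lights on. The HDAC3 and PROX1 lists came from control livers with 3 libraries each, and the HNF4α list from *Hnf4α* floxed livers with 2 libraries, which by the study's methods had received a control virus expressing a fluorescent protein from the hepatocyte promoter TBG. The replicates had been pooled before peaks were called, so no spread between livers can be given, and the factors were mapped in livers of different genotype. Both comparison classes came from the same PROX1 list: 12284 peaks covered by HDAC3 and HNF4α, called triply bound, and 4677 peaks with neither, called PROX1 alone. A further 7755 PROX1 peaks had HDAC3 and no HNF4α.

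PROX1 is a homeodomain protein that acts in liver as a corepressor of nuclear receptors, and HDAC3 is the histone deacetylase of the NCoR and SMRT corepressor complexes. HNF4α is a nuclear receptor that maintains the hepatocyte gene program and binds DNA as a homodimer. Its element is a direct repeat with a spacer of a single base, the DR1. The letters searched as the HNF4α consensus were those of a DR1 whose downstream part is of the type that HNF4α prefers over other receptors.

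The sequences at 7 members show what such a site looks like. The first 5 are from those with the highest HNF4α scores among members that matched the HNF4α consensus with 0 mismatches, and the last 2 had the highest scores among members without a match within 2 mismatches. All are the forward strand of NCBIM37 (mm9), and capitals mark the 13 letters of the consensus match. The Arhgef16 site lay in an intron at chr4:153668400-153668599, the Grtp1 site in the promoter at chr8:13200831-13201030, the Rara site in an intron at chr11:98796446-98796645 and the Pdss2 site in an intron at chr10:43079100-43079299. The Psma6 site lay in an intron at chr12:56516867-56517066, the Dnajc5b site in an intron at chr3:19412128-19412327 and the Elovl6 site between genes at chr3:129140689-129140888.
Arhgef16: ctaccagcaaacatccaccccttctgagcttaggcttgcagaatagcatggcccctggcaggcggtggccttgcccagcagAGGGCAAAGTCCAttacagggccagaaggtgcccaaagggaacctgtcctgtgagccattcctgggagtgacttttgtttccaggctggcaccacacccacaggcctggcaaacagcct
Grtp1: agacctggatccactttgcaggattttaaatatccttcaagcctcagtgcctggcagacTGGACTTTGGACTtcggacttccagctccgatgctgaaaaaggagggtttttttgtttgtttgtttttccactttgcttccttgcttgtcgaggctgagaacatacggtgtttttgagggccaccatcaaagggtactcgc
Rara: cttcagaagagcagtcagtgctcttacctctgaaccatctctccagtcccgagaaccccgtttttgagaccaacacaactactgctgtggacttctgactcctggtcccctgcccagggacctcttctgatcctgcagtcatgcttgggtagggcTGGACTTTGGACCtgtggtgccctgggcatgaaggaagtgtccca
Pdss2: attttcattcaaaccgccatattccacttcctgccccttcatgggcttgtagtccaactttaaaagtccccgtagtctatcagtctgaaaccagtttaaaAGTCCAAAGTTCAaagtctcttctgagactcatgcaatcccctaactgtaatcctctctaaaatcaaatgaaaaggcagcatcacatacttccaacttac
Psma6: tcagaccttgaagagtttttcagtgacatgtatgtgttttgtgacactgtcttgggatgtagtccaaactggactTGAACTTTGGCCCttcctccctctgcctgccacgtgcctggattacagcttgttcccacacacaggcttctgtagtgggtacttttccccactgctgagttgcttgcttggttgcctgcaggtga
Dnajc5b: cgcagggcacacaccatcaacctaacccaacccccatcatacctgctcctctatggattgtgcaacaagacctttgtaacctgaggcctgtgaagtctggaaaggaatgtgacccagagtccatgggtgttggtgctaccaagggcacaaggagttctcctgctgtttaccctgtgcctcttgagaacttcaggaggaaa
Elovl6: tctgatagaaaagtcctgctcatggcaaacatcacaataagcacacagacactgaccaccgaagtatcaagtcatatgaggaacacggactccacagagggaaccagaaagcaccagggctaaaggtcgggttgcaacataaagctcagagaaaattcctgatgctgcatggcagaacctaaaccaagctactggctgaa

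In the Arhgef16 peak, which had an HNF4α score of 93.3, the match read AGGGCAAAGTCCA on the forward strand and its centre lay 1 bp from the centre of the HNF4α peak. The Grtp1 peak, 311 bp upstream of the TSS, held AGTCCAAAGTCCA on the reverse strand with a score of 92.8. The Rara peak, nearest to the retinoic acid receptor α gene, held GGTCCAAAGTCCA on the reverse strand. Its match lay 61 bp from the centre of the PROX1 peak and 4 bp from the centre of the HNF4α peak. The matches at Pdss2 and Psma6 ended in AAAGTTCA, the other downstream form allowed by the consensus. The Dnajc5b peak, with a score of 107.4, had 3 mismatches at its best and instead held the C/EBP and FOXA motifs. The Elovl6 peak, with a score of 106.5, also had 3 mismatches at its best and held none of the 16 motifs searched. High HNF4α scores thus occurred both with a perfect consensus and without one.

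Cover by HDAC3 was nearly absent from the members and cover by HNF4α was graded. Only 1 member touched an HDAC3 peak, over 2 bp, and the other members had no HDAC3 cover at all. HNF4α peaks, which were 85 to 168 bp wide, covered members over 100 to 168 bp with a median of 150 bp, and 2707 different HNF4α peaks covered the 2707 members. Of the PROX1-alone peaks, 4408 had no HNF4α cover and 269 were touched by an HNF4α peak below the limit. Just inside the limit, 100 members were covered over 100 to 109 bp, with a median HNF4α score of 35.3 and the consensus in 45.0%. Just outside it, 81 peaks were covered over 90 to 99 bp, with a median score of 33.5 and the consensus in 45.7%. The values on either side of the limit were close.

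HNF4α signal at the members was weaker than at triply bound peaks. The score is the HOMER peak score that the authors deposited for each HNF4α peak, and its scale is not given in the sources used here. Members had a median score of 37.7 (95% interval of the median 36.8 to 38.6, counting error only) with quartiles of 28.7 and 51.8, from 20.3 to 121.1. Triply bound peaks had a median of 52.3 with quartiles of 36.3 and 73.0, up to 160.2. The 8174 HNF4α peaks with neither PROX1 nor HDAC3, called HNF4α alone, had a median of 33.5 with quartiles of 26.4 and 44.3. The interquartile ranges of the 3 classes overlapped. These scores come from the list that chose the members and were not tested. Above the third quartile of the HNF4α list, a score of 60.8, lay 14.1% of members and 37.6% of triply bound peaks.

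**Figure D1:**
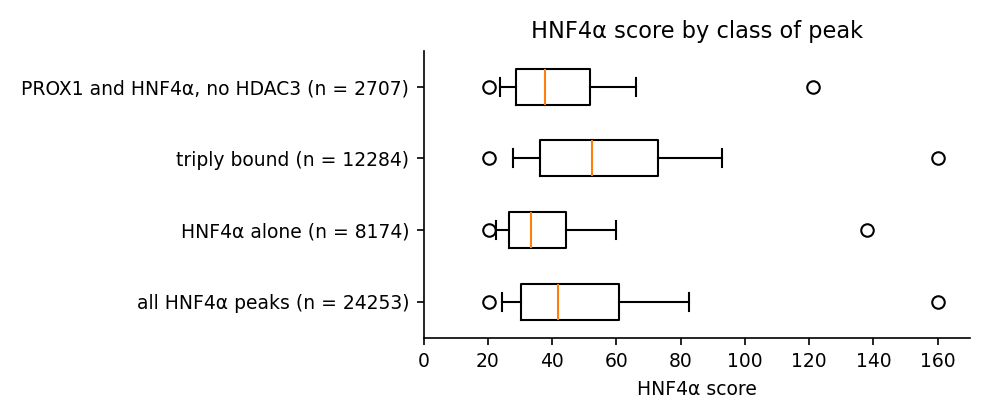
HNF4α score (horizontal axis, HOMER score as deposited) by class of peak, with the median as the line in the box, the quartiles as the box, the 10th and 90th percentiles as whiskers and the lowest and highest value as circles. The box of PROX1 and HNF4α peaks without HDAC3 lies between those of HNF4α-alone and triply bound peaks.

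Although HNF4α scores were lower, the HNF4α consensus was more frequent at the members than at triply bound peaks. Within 2 mismatches it was found on either strand of the 200 bp window in 1494 of 2707 members, or 55.2% (95% Wilson interval 53.3 to 57.1), against 31.4% of all PROX1 windows. It was found in 41.4% of triply bound peaks, 18.6% of PROX1-alone peaks and 9.07% of windows 2 kb to either side of the members. Members exceeded triply bound peaks by 13.8 percentage points (interval 11.7 to 15.8; Pearson chi-square test, adjusted p = 5.31e-38) and PROX1-alone peaks by 36.6 points (chi-square test, adjusted p = 1.79e-230), and did so on 20 of 20 chromosomes in both comparisons. Adjustment was over the 32 tests of 16 motifs in the 2 comparisons. Peaks of one pooled list are not independent replicates of a liver, so these p-values cover the counting of peaks only. Members were chosen for cover by an HNF4α peak and PROX1-alone peaks lacked it. An excess of HNF4α motifs over PROX1-alone peaks was therefore built into the choice, and its p-value is no support.

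Perfect and nearly perfect elements were among those found more often. A consensus with 0 mismatches occurred in 41 members (1.51%) and 113 triply bound peaks (0.920%), and 1 mismatch was the best in 15.8% of members, 9.48% of triply bound and 2.69% of PROX1-alone peaks. The HNF4 core CAAAGTCCA, the receptor-specific end of the element, occurred in 8.35% of members, 4.18% of triply bound peaks, 1.33% of PROX1-alone peaks, 0.351% of flanks and 3.13% of all PROX1 windows. Its share in members was higher in both comparisons (chi-square test, adjusted p = 7.10e-19 and 8.56e-50). The generic DR1 core CAAAGGTCA, which PPAR and RXR heterodimers also bind, did not show that difference: it occurred in 4.54% of members and 4.13% of triply bound peaks (difference 0.42 points, interval -0.39 to 1.33, chi-square test, adjusted p = 0.385). Against the 1.39% of PROX1-alone peaks it was higher (chi-square test, adjusted p = 5.99e-16), and flanks held it in 0.240% and all PROX1 windows in 2.94%. Both cores overlap the consensus, so their matches are in part the same bases. Their excess over PROX1-alone peaks was likewise built into the choice of members by HNF4α cover.

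The difference from triply bound peaks was present at every level of HNF4α score. Peaks were divided into 4 bands at the quartiles of the whole HNF4α list, 30.2, 41.9 and 60.8, and members held the consensus more often in each band. In the lowest band it was found in 40.5% of 843 members and 21.6% of 1770 triply bound peaks. In the second band the shares were 50.3% of 740 and 29.1% of 2496, and in the third 64.9% of 741 and 38.6% of 3403. In the highest band they were 78.3% of 383 members and 57.8% of 4615 triply bound peaks. The differences ranged from 18.9 to 26.4 points and each was larger than the 13.8 points of the undivided classes. The bands were chosen after seeing the data. They are among 18 alternatives to the undivided comparison, over which the difference was 5.82 to 26.4 points. The highest adjusted p of the 18 was 8.81e-14 (chi-square test), at 75% cover and not in a band. With windows centred on the HNF4α peak, the consensus was found in 56.2% of members, 42.9% of triply bound peaks and 57.2% of HNF4α-alone peaks. By band of score, HNF4α-alone peaks held it in 52.5, 57.8, 60.6 and 69.0% and members in 40.8, 52.2, 66.1 and 78.6%, a wider span, given without a test.

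**Figure D2:**
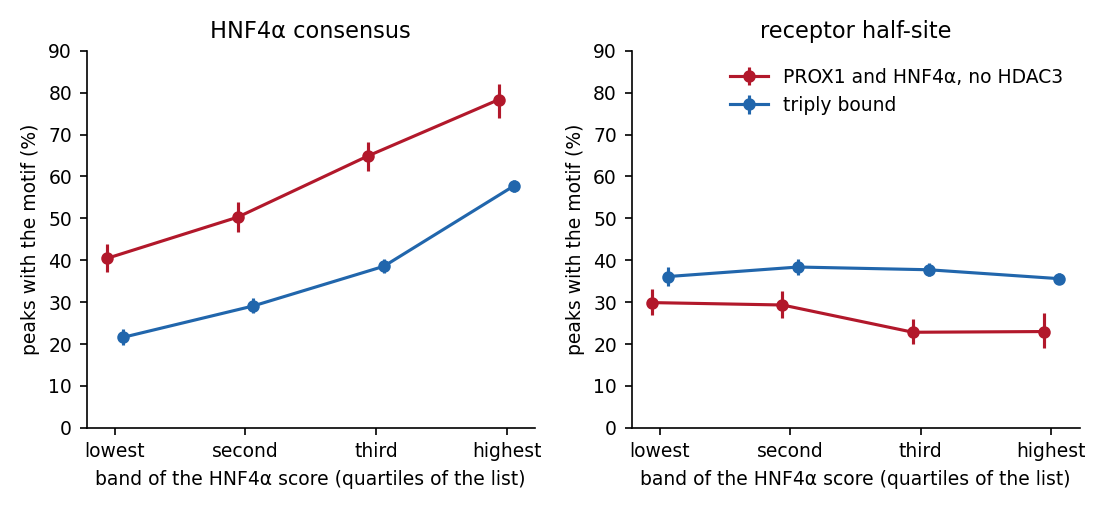
Share of peaks with the HNF4α consensus (left) and the receptor half-site (right) on the vertical axes, by band of the HNF4α score on the horizontal axes, with 95% Wilson intervals as bars. Members (red) lie above triply bound peaks (blue) for the consensus in each band, from 40.5 against 21.6% to 78.3 against 57.8%, and below them for the half-site.

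The element also sat closer to the middle of the members. Among windows with the consensus, its centre lay at a median of 19 bp from the centre of the HNF4α peak in members (quartiles 9 and 33) and 24 bp in triply bound peaks (quartiles 11 and 43). From the centre of the PROX1 peak the medians were 29 bp and 35 bp. Within 25 bp of the HNF4α centre lay 63.9% of the sites in members (95% Wilson interval 61.5 to 66.3) and 52.9% of those in triply bound peaks (51.5 to 54.3). The centres of the PROX1 and HNF4α peaks themselves were 18 bp apart at the median in both classes. Individual sites were diverse: the most frequent sequence among members, AGTCCAAAGTTCA, served 7 of them and 9 triply bound peaks. These positions are measured from the peaks that chose the members and were not tested.

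**Figure D3:**
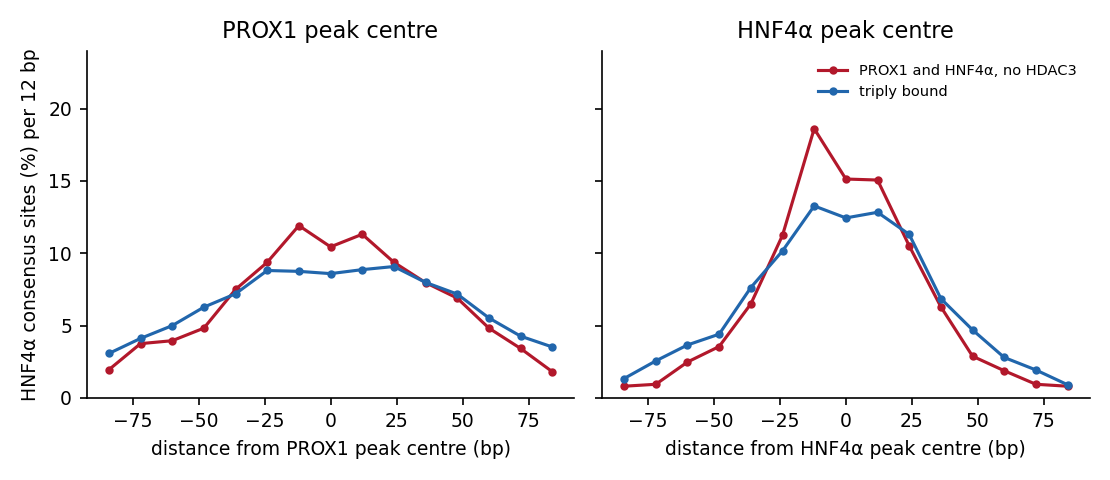
Share of HNF4α consensus sites per 12 bp (vertical axis) by distance in bp from the centre of the PROX1 peak (left) and of the HNF4α peak (right), for members (red) and triply bound peaks (blue). Both classes peak near the centre, and the members do so more sharply around the HNF4α centre, where 63.9% of their sites lie within 25 bp.

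The receptor half-site and the Rev-erb DR2 were less frequent at the members than at triply bound peaks. The receptor half-site AGGTCA, the unit that nuclear receptors bind singly or as repeats, occurred in 26.8% of members, 36.8% of triply bound and 22.7% of PROX1-alone peaks, with 11.6% in flanks and 31.8% in all PROX1 windows. Members were 10.0 points below triply bound peaks, on 20 of 20 chromosomes (interval -11.9 to -8.11, chi-square test, adjusted p = 3.99e-22), and 4.16 points above PROX1-alone peaks (chi-square test, adjusted p = 0.000157). The second difference changed sign when only HNF4α peaks above the median score counted, to -1.56 points. The Rev-erb DR2 consensus is the repeat bound by the clock repressors NR1D1 and NR1D2, which recruit HDAC3 through NCoR. It was found within 3 mismatches in 9 members (0.333%) and 1.45% of triply bound peaks (chi-square test, adjusted p = 7.67e-06). The call held in 14 of 16 alternatives and was lost in the second and highest bands of score. Members were chosen for lacking an HDAC3 peak and triply bound peaks for having one. A deficit of this repeat may therefore be built into the choice, and its p-value is no support. Flanks of the members held the DR2 consensus in 1.18% and all PROX1 windows in 1.34%, so the members lay below their own flanks. PROX1-alone peaks, at 0.556%, did not differ from members by the test (difference -0.22 points, interval -0.53 to 0.12, chi-square test, adjusted p = 0.228).

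Motifs of other hepatocyte factors differed between the classes in either direction. The C/EBP palindrome TTGCGCAA within 1 mismatch occurred in 8.50% of members, 13.1% of triply bound peaks and 12% of PROX1-alone peaks, with 2.22% in flanks and 11.9% in all PROX1 windows. It was lower at members in both comparisons (chi-square test, adjusted p = 1.46e-10 and 1.02e-05), and lower than at triply bound peaks on 19 of 20 chromosomes. The FOXA motif TGTTTAC, of the forkhead pioneer factors, occurred in 6.58% of members and 8.05% of triply bound peaks (chi-square test, adjusted p = 0.0203), with 2.68% in flanks and 7.91% in all PROX1 windows. The ONECUT motif ATCAATAA, bound by HNF6, occurred in 4.54% of members, 3.53% of triply bound peaks, 0.924% of flanks and 3.67% of all PROX1 windows, and was higher in members (chi-square test, adjusted p = 0.0223). HNF1 letters, GTTAATNAT, were in 1.03% of members, 2.52% of PROX1-alone peaks, 0.628% of flanks and 1.92% of all PROX1 windows, and were lower in members than in PROX1-alone peaks (chi-square test, adjusted p = 2.77e-05). The STAT motif TTCCNGGAA, of the factors that answer growth hormone, was at 0.702% in members, 1.28% in triply bound and 2.18% in PROX1-alone peaks and was lower in both comparisons (chi-square test, adjusted p = 0.0223 and 5.63e-06), with 0.425% in flanks and 1.69% in all PROX1 windows.

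The AP-1 motif TGACTCA was in 4.69% of members and was lower than in triply bound peaks, at 6.07%, and PROX1-alone peaks, at 5.94% (chi-square test, adjusted p = 0.0125 and 0.0404), with 2.96% in flanks and 5.90% in all PROX1 windows. The E-box CACGTG was in 3.10% of members and 4.01% of triply bound peaks (chi-square test, adjusted p = 0.0435), with 2.49% in flanks and 3.76% in all PROX1 windows. The NFI half-site TGCCAAG, at 8.20% of members, was lower than in PROX1-alone peaks, at 10.3% (chi-square test, adjusted p = 0.00674), with 3.51% in flanks and 9.47% in all PROX1 windows. The ETS motif CCGGAAGT, the GC box GGGCGG and the CTCF core CCANNAGGG passed neither comparison, at 0.222, 2.25 and 3.36% of members, 0.222, 3.49 and 2.60% of flanks and 0.197, 3.13 and 3.32% of all PROX1 windows. Against triply bound peaks the calls of FOXA, ONECUT, STAT, AP-1 and the E-box held in 12, 10, 8, 8 and 6 of 16 alternatives, and against PROX1-alone peaks the calls of AP-1 and NFI in 3 and 7 of 11. The C/EBP call held in 15 of 16 alternatives against triply bound peaks and 10 of 11 against PROX1-alone peaks. For HNF1 the call against PROX1-alone peaks held in 10 of 11. In all, 3 of 16 motifs were higher and 7 lower in members than in triply bound peaks, and 4 were higher and 5 lower than in PROX1-alone peaks. When the HNF4α, C/EBP, FOXA, HNF1 and ONECUT motifs were read together, 46.2% of members had the HNF4α consensus and none of the other 4, against 33.1% of triply bound and 15.1% of PROX1-alone peaks. None of the 5 was found in 34.2% of members, 42.5% of triply bound and 59.6% of PROX1-alone peaks.

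**Figure D4:**
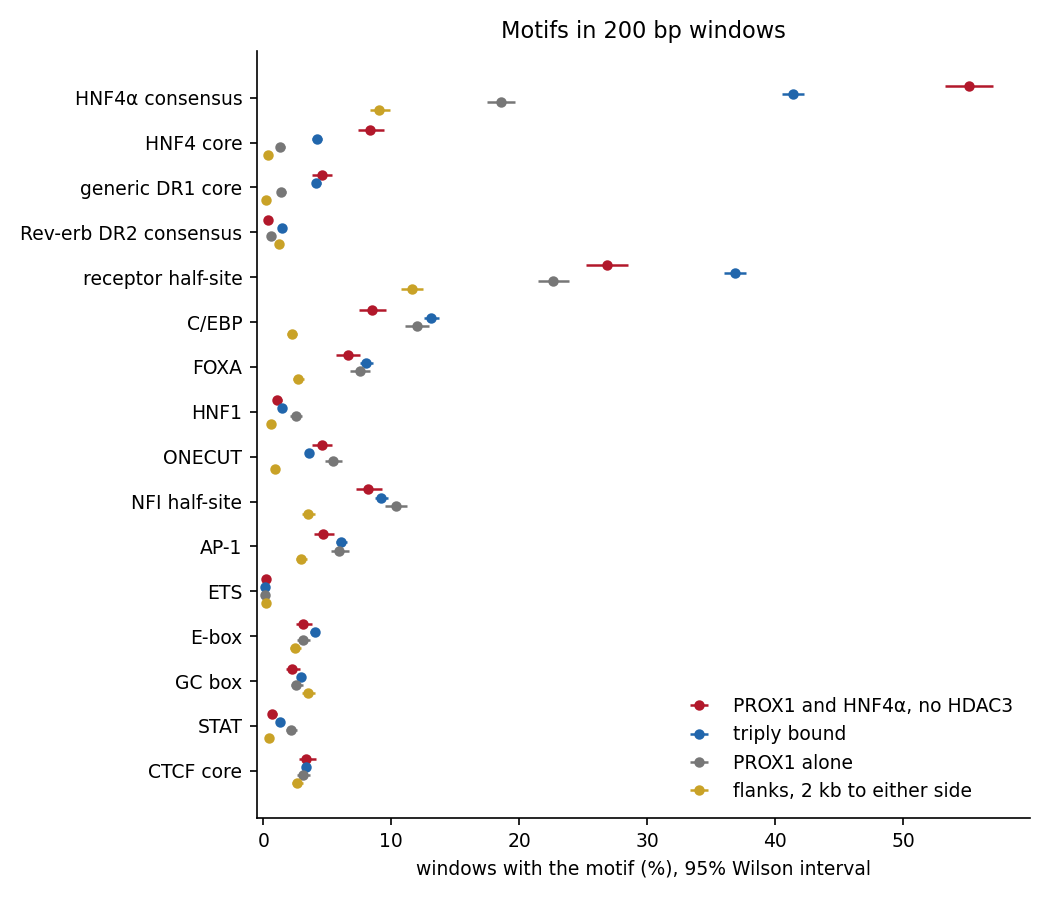
Share of 200 bp windows with each of the 16 motifs (horizontal axis, with 95% Wilson intervals) in members (red), triply bound peaks (blue), PROX1-alone peaks (grey) and windows 2 kb to either side of the members (yellow). Among the windows shown, the HNF4α consensus is highest in members, at 55.2%, and the receptor half-site in triply bound peaks, at 36.8%. HNF4α-alone peaks are not shown. With windows centred on the HNF4α peak they held the consensus in 57.2%, against 56.2% of members.

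Members lay in introns more often than the other classes. By the peak centre, 52.1% of members were in an intron of a protein-coding gene, against 47.0% of triply bound and 46.6% of PROX1-alone peaks (chi-square test, adjusted p = 8.38e-06 and 1.98e-05, over 16 tests of 8 shares in the 2 comparisons). The second call was lost with HNF4α peaks above the median score (3.50 points, chi-square test, adjusted p = 0.0571). Between genes lay 38.4% of members, fewer than the 43.4% of triply bound and 42.5% of PROX1-alone peaks (chi-square test, adjusted p = 8.38e-06 and 0.00147). Exons held 3.44% of members, against 2.56 and 2.42% (chi-square test, adjusted p = 0.0187 and 0.0184), and both calls were lost at 75% cover (adjusted p = 0.123 and 0.248) and with a promoter of 2 kb (adjusted p = 0.0783 and 0.0689). Promoters, the 1 kb around any TSS of protein-coding transcripts, held 164 members, or 6.06%, which was lower than the 8.49% of PROX1-alone peaks (chi-square test, adjusted p = 0.000468), a call lost when only HNF4α peaks above the median score counted. Triply bound peaks, at 7.06%, were not separated from members at this limit (difference -1.0 points, interval -1.96 to 0.06, chi-square test, adjusted p = 0.0914), but were at a limit of 500 bp or with the TSSs of all transcripts, by -1.28 and -1.58 points (chi-square test, adjusted p = 0.00436 and 0.0223).

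The distance to the nearest TSS had a median of 18.6 kb in members, 18 kb in triply bound and 19.9 kb in PROX1-alone peaks, and the shares within 10 kb and beyond 50 kb passed no test in either comparison. A GC content of at least 50% was found in 24.6% of member windows, lower than the 29.4% of triply bound and higher than the 21.6% of PROX1-alone peaks (chi-square test, adjusted p = 8.38e-06 and 0.00524). The first call was lost with HNF4α peaks above the median score, and the second difference turned to -1.25 points when 75% cover was required. At least 3 CpG were found in 36.8% of members and 40.2% of triply bound peaks (chi-square test, adjusted p = 0.00202). That call too was lost with HNF4α peaks above the median score (-3.25 points, chi-square test, adjusted p = 0.0614). The motif difference was present at low and at high GC: members held the HNF4α consensus more often than triply bound peaks both below the median GC of all PROX1 windows and at or above it.

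Distances to other peaks were read along the chromosome. The nearest HDAC3 peak was at a median of 12.35 kb, with 211 members (7.79%) within 1 kb and 1082 (40.0%) more than 20 kb away. PROX1-alone peaks had their nearest HDAC3 peak at a median of 8.66 kb, with 13.5% within 1 kb. The nearest triply bound peak was at a median of 20.7 kb, and the nearest other member at 115 kb, with 78.8% of members more than 20 kb from another. PROX1-alone peaks had their nearest member at 127 kb, with 81.2% more than 20 kb away. On the autosomes 8.31 to 12.3% of PROX1 peaks were members, and on the X chromosome 48 of 301, or 15.9%. Distances and shares by chromosome come from the positions that chose the members and carry no test.

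The members were assigned to the gene with the closest protein-coding TSS, up to 100 kb away. That placed 2349 of the 2707 members at 1879 of 22238 protein-coding genes (8.45%), of which 1509 had a single member and 4 had 5. A triply bound peak was assigned to 1151 of these genes, which is 61.3% of the genes with a member and 23.9% of the 4815 genes with a triply bound peak. The remaining 728 genes with a member had no triply bound peak. Assignment by distance does not show that a peak acts on the gene.

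The highest HNF4α scores at members fell near genes of varied function. The highest, 121.1, was at a member 33.4 kb downstream of the TSS of Slc20a1, a phosphate transporter, at chr2:129058304-129058503. The next was nearest to Noc3l, with 120.6, but lay within an intron of Plce1, a phospholipase C, at chr19:38797603-38797802. An intronic site of Exosc7, a subunit of the RNA exosome, had 113.1 at chr9:123032856-123033055. An intronic site of Acaca, the acetyl-CoA carboxylase that commits acetyl-CoA to fatty acid synthesis, had 103.7 at chr11:83955361-83955560, and a second intronic site of Acaca had 64.6. Sites at Numb, an inhibitor of Notch signalling, and nearest to A730018C14Rik both had 103.2. A site 5.1 kb upstream of the nearest TSS of Met, the hepatocyte growth factor receptor, had 101.8 at chr6:17491778-17491977. A site 60.5 kb upstream of Sulf2, a heparan sulfatase, had 99.4 at chr2:166041537-166041736. Of these 10 members, which include Dnajc5b and Elovl6, 8 held the HNF4α consensus.

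A few genes collected several members. Rere, a nuclear receptor coregulator, had 5 members, all intronic, with scores from 20.7 to 67.8. Akap13, an anchoring protein for protein kinase A, had 5 with scores from 22.1 to 61.7. D4Bwg0951e had 5 with scores from 28.7 to 44.8, of which 4 were intronic. Kat2b, a histone acetyltransferase, had 5 with scores from 28.7 to 39.1, and one of them was centred 67 bp from a TSS with 1 mismatch to the consensus. Ptprg, a receptor tyrosine phosphatase, Psd3, Map2k6, a kinase upstream of p38, Klf12 and Phf17 had 4 each, with the highest score among them of 81.0 at Ptprg. The number of sites per gene was not scaled to gene length.

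Lists of liver genes were then read against the 8.45% of all protein-coding genes that had a member. Over 19 lists, 82 of 397 matched genes (20.7%) had one. The comparison is a count, and no list was tested. The Wilson interval included the 8.45% for lipid droplet (4.54 to 32.1%), apolipoprotein (4.33 to 42.2%) and coagulation genes (5.24 to 36.0%). It did so for cytochrome P450 (7.34 to 33.6%) and for lipogenic and urea cycle genes (8.18 to 36.7% each). It did so too for the corepressor, cholangiocyte, endothelial, Kupffer and ribosomal lists. It lay above 8.45% for transcription factor, nuclear receptor, oxidation, cholesterol, bile acid, glucose, plasma protein and clock genes. For plasma proteins its lower end was 8.86%, close to that share. The intervals are not adjusted for the 19 lists, which were chosen with earlier results of these data known. This division therefore calls no list. With 75% cover 4.68% of all genes had a member, and with HNF4α peaks above the median score 4.0%. Triply bound peaks were also common at these genes, as they were at 21.7% of all protein-coding genes, and the counts are given beside each other for that reason. PROX1-alone peaks were at 12.7% of all protein-coding genes. They were at 13 of 17 hepatocyte transcription factor genes, 13 of 22 glucose genes and 11 of 26 cholesterol genes. No list had fewer genes with a PROX1-alone peak than with a member, and apolipoproteins had 2 with each.

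Hepatocyte transcription factors had the largest share, with 8 of 17 genes, and 15 of the 17 had a triply bound peak. The share fell from 47.1 to 17.6% at 75% cover and to 23.5% above the median score, where glucose genes, at 27.3% in both, were higher. Foxa2, a forkhead pioneer factor of liver, had a member 52.3 kb downstream of its TSS with a score of 57.5 and a perfect consensus. Nr5a2, the receptor LRH-1 of bile acid and cholesterol genes, had 2 members with 55.1 and 43.8. Prox1 itself had 2 upstream members, 10.4 and 14.0 kb from its TSS, with scores of 49.9 and 23.1, the second with 1 mismatch to the consensus. Hnf4a, Gata4 and Onecut1 each had 1 member, with scores from 22.1 to 29.7.

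Nuclear receptors had members at 9 of 34 genes, and all 9 also had a triply bound peak. This share of 26.5% became 5.88% at 75% cover and 8.82% above the median score. The highest score, 79.2, was at Rara. Nr1h4, the bile acid receptor FXR, had 2 intronic members with 56.5 and 48.1. Thrb, the thyroid hormone receptor of liver, had an intronic member with 40.1. The 6 genes of the corepressor complex had 0 members by this assignment, whereas 4 of the 6 had a triply bound peak. With windows from 50 kb upstream to 2 kb past the end, 33.3% of the 6 had a member.

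Glucose and glycogen metabolism followed, with 9 of 22 genes. Irs2 and Insr, which transmit the insulin signal, had members with scores up to 74.9 and 62.2, and Insr had 3. The Irs2 member lay 72.55 kb from the TSS. Khk, which phosphorylates fructose, had 70.7 in an intron, and Fbp1, the fructose bisphosphatase of gluconeogenesis, had 65.0 at 5.39 kb upstream. Pcx, pyruvate carboxylase, had 3 members with a highest score of 45.7, one of them 760 bp upstream of a TSS with 21.7. Of the 22 genes, 18 had a triply bound peak.

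Lipid genes had members at between 3 of 23 and 8 of 26 genes of a list. Cholesterol synthesis and uptake had members at 8 of 26 genes. Scap, the escort of SREBP, had 59.4 in an intron. Insig2, which retains SCAP in the endoplasmic reticulum, had 53.7 at 79.08 kb from its TSS. Npc1, a lysosomal cholesterol transporter, had 3 members with a highest score of 53.2. Lipogenesis and triglyceride synthesis had members at 5 of 27 genes: Elovl6, Acaca, Gpam, Srebf1 and Acly. The Elovl6 member with the highest score lay 94.52 kb from the TSS. Gpam, the first acyltransferase of triglyceride synthesis, had 49.9 at 1.45 kb upstream of a TSS, and Srebf1, the lipogenic transcription factor, 44.3 in an exon. Fatty acid oxidation and ketogenesis had members at 7 of 33 genes, led by Bdh1, the 3-hydroxybutyrate dehydrogenase, with 97.5 at 2.60 kb upstream, then Acads with 55.1, Eci2 with 53.7 and Hadh with 42.4. Lipid droplet and lipolysis genes had members at 3 of 23, Angptl4, Mgll and Cideb, with 55.1, 39.6 and 30.2, the last 701 bp downstream of a TSS. Triply bound peaks were assigned to 16 of the 26 cholesterol genes, 23 of the 27 lipogenic genes, 24 of the 33 oxidation genes and 15 of the 23 lipid droplet genes.

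Bile acid synthesis and transport had members at 7 of 22 genes, all 22 of which had a triply bound peak. Amacr, the racemase of bile acid side chain oxidation, had 67.8, Slco1b2 35.8 and Cyp7b1 34.4, and the uptake transporter Slco1a1 had a member 801 bp upstream with 30.2. The core clock and output list had members at 6 of 22 genes: Bhlhe40, with 88.6, Cry2, with 74.0 in an intron, Per2, with 62.2 at 4.24 kb upstream, Bhlhe41, Csnk1d and Rora. Apolipoproteins had 2 of 13, Apob, with an intronic member of 62.2, and Apoa4, with 56.5 at 1.67 kb upstream. Triply bound peaks were assigned to 14 of the 22 clock genes and 8 of the 13 apolipoprotein genes.

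Secreted proteins and enzymes of hepatocytes were read in 4 lists. Plasma carrier and acute phase proteins had members at 5 of 25 genes, led by Ambp with 65.5, Crp with 50.4, Hamp with 43.3 and Orm2 with 41.0. The Ambp member lay 90.62 kb from the TSS, in an intron of Zfp618. That of Crp lay 88.04 kb away, and that of Hamp lay in an intron of Usf2. Cytochrome P450 genes had 5 of 30, with 44.8 at Cyp2r1, 255 bp upstream of its TSS, 43.8 at Cyp1a2, 43.3 at Cyp1a1 and 39.1 at Cyp2f2. Urea cycle and amino acid breakdown had 5 of 27, with 52.8 at Cbs, 43.8 at Got1 and 28.3 at Tdo2, while 26 of the 27 had a triply bound peak. Coagulation factors had 3 of 20: Proc with 42.9, F5 with 40.5 and a perfect consensus, and Klkb1 with 33.0 at 16 bp from its TSS. Triply bound peaks were assigned to 22 of the 25 plasma protein, 26 of the 30 cytochrome P450 and 17 of the 20 coagulation genes.

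Markers of other liver cells were read in the same way. Endothelial and lymphatic markers had 0 of 12 and Kupffer and stellate cell markers 0 of 12, each of which allows a share of up to 24.3% by the Wilson interval, a range that includes the background. At 25% cover the shares were 16.7 and 8.33%. Cholangiocyte markers had 2 of 10, one of them Sox9, with a score of 22.1. Ribosomal proteins, a list of genes that all cells use, had 1 of 30. Triply bound peaks were assigned to 5 of the 12 endothelial, 1 of the 12 Kupffer and stellate, 3 of the 10 cholangiocyte and 4 of the 30 ribosomal genes.

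**Figure D5:**
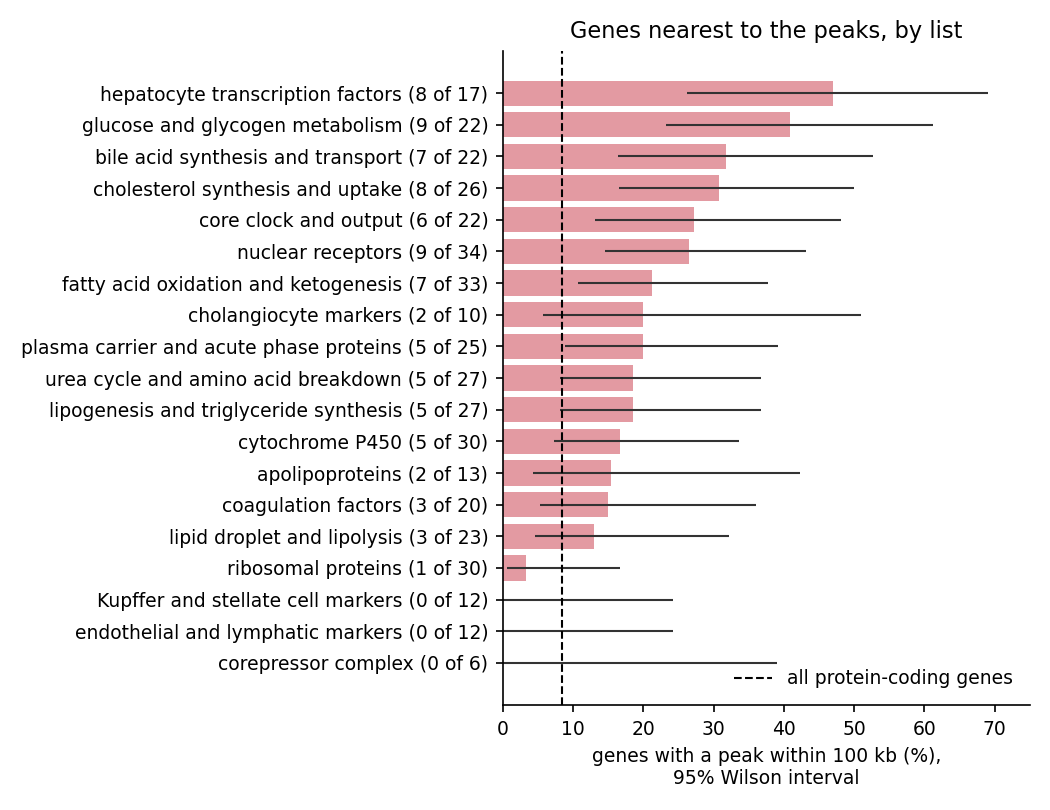
Share of genes in each of 19 lists that had a PROX1 and HNF4α peak without HDAC3 nearest within 100 kb (horizontal axis, percent, with 95% Wilson intervals), with counts beside the names. The dashed line is the 8.45% of all protein-coding genes. Hepatocyte transcription factors are highest, with 8 of 17 genes, and 3 lists have 0 genes.

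A peak outside the HDAC3 list is one that did not pass the authors' limits for HDAC3, and HDAC3 signal below those limits was not analysed here. The HNF4α list was filtered by the authors on the *Hnf4α* knockout, and the lists hold no read counts, so the depth behind each peak is unknown.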

How the data were processed

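Peak lists were used as the authors deposited them, 1 per factor. Per the study's methods and the labels, reads were aligned to mm9 with Bowtie 0.12.7, duplicates were removed, replicates were pooled, and peaks were called with HOMER with IgG as input and retained if they passed set limits of enrichment and read number. The HDAC3 and PROX1 lists give positions, and 3 empty lines in each were left out. The score of each HNF4α peak is the HOMER value deposited by the authors. Depth per library is unknown from these lists, and intervals cover counting error only.

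A peak counted as bound when 50% of its length was covered. Motifs were searched on both strands of 200 bp windows of NCBIM37, and peak centres were annotated with GENCODE genes of the same assembly. The Rev-erb DR2 consensus allowed 3 mismatches, the HNF4α consensus 2 and C/EBP 1. Shares were compared by the two-sided Pearson chi-square test without continuity correction, with Benjamini-Hochberg adjustment and Newcombe intervals of differences, and called at 0.05. The genome held no masked repeats, so the planned repeat share could not be computed. The code was tested on simulated data. Gene lists were matched by symbol, with RefSeq synonyms for older names, which placed 397 of 400 listed genes. Named genes were the 10 members with the highest scores, the 10 genes with most members, and in each list up to 4 genes with the highest score and any with a member within 1 kb of a TSS. The 7 sequences shown were chosen by the consensus and the score. A few further list genes are named to complete counts, and some genes that the rule picks are not reported here. The members and lists were chosen with earlier results of these data known. Python 3.11.15, numpy 2.4.6, scipy 1.17.1 and matplotlib 3.10.9 were used. RNA-seq, H3K27Ac and knockout libraries were not analysed here.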

Additional observations from a re-analysis of the deposited data

How the results depend on the processing

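No paired analysis was possible because each list was called on pooled replicates and holds no value per library. For the same reason no replicate could be left out. The 23 alternatives, 4 of them chosen after seeing the data (the 4 bands of the HNF4α score), changed 1 choice each. The share of the HNF4α consensus kept its direction and its side of the threshold in all 18 alternatives against triply bound peaks (5.82 to 26.4 points) and all 13 against PROX1-alone peaks (14.5 to 44.2 points). The HNF4 core did so as well in both comparisons, and the receptor half-site did so against triply bound peaks (-14.9 to -5.59 points). An excess of HNF4α motifs over PROX1-alone peaks was built into the choice of members.

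Requiring 75% cover left 1378 members with a median HNF4α score of 40.5 near 1040 genes, and turned the GC difference from PROX1-alone peaks to -1.25 points. Using only HNF4α peaks above the median score left 1124 members with a median of 54.7 near 890 genes, with 6 motifs called against triply bound peaks, a promoter difference from PROX1-alone peaks of -0.88 points and a GC difference from triply bound peaks of -3.17 points, neither of them past the threshold. The promoter difference from triply bound peaks passed the threshold without an HDAC3 peak within 1 kb (-1.53 points), at 500 bp (-1.28) and with the TSSs of all transcripts (-1.58). Against triply bound peaks 10 motifs were called, 6 below and 6 at or above the median GC, and 6, 4 and 3 in the lowest, second and highest band of the score. Against PROX1-alone peaks 9 were called, and 5 at or above the median GC. Of single motifs, locations and lists under an alternative, 583 values kept their direction and side, 59 lost the threshold, 6 gained it, 37 reversed and 13 list shares moved.

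Reversals, in percentage points, were all of differences that did not pass the threshold under the alternative. Against triply bound peaks, the generic DR1 core turned to -0.13 at 75% cover, -0.48 at high GC and -0.089 in the third band of the score. ONECUT turned to -0.066 above the median score and -0.24 in the third band. CTCF turned to -0.45 at 75% cover, -0.20 without HDAC3 within 1 kb, -0.34 at low GC, -0.16 on HNF4α windows, and -0.21 and -0.40 in the second and highest bands. ETS turned to -0.061 above the median score, -0.020 at low GC and -0.21 in the third band. NFI turned to 0.21 in 100 bp windows and 0.23 in the third band, and HNF1 and the GC box to 0.50 and 0.40 in the highest band. The share within 10 kb of a TSS turned to 1.28 above the median score.

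Against PROX1-alone peaks, the E-box turned to -0.13 at 25% cover, -0.23 at 75% cover, -0.18 above the median score, -0.13 with 1 peak per cluster, -0.14 over 1 kb from a TSS, -0.28 in 100 bp windows and -0.12 at low GC. CTCF turned to -0.34 at 75% cover, -0.040 without HDAC3 within 1 kb and -0.37 at low GC. ONECUT turned to 0.31 at 75% cover and 0.51 at high GC, the half-site to -1.56 and ETS to -0.087 above the median score, and ETS to -0.0062 at low GC. The DR2 turned to 0.014 in 100 bp windows. The share within 10 kb of a TSS turned to -0.20 at 75% cover and that with 3 CpG to 0.43 above the median score. The cause of these changes was not tested.

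With assignment within 50 kb, 1652 genes (7.43%) had a member, and with windows from 50 kb upstream to 2 kb past the end, 2790 genes (12.5%) did. List shares moved at 75% cover to 9.09% for fatty acid oxidation and 5% for coagulation factors, and above the median score to 4.35% for lipid droplet, 15.4% for cholesterol, 9.09% for bile acid, 7.41% for urea cycle, 5% for coagulation and 0% for cholangiocyte genes. Without HDAC3 within 1 kb the lipid droplet share was 4.35%.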
